A study of Mus musculus with 78 samples.

Results

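Tight junctions seal neighbouring epithelial cells together, and simple keratins form the filament network beneath them. The 9 mouse genes described here cover both structures: Tjp1, Cgn, Ocln, F11r, Cldn4, Cldn6 and Cldn7 of the tight junction, and the keratins Krt8 and Krt18. They were chosen as a list, and their rows were taken from 2 gene tables by Entrez gene identifier. All 9 were listed in both tables, among 15218 genes at the 4-cell stage and 15342 genes at the 8-cell stage, of which 13604 were in both.

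The cells were single blastomeres of rainbow embryos, which carry a cell lineage label set at the 2-cell stage. Embryos came from parents of the strains that carry the Gt(ROSA)26Sortm1(CAG-Brainbow2.1)Cle allele or the Tg(CAG-cre/Esr1*)5Amc transgene. Each embryo therefore held a copy of the Brainbow construct, which can express 1 of 4 fluorescent proteins after recombination, and a copy of a Cre recombinase that enters the nucleus on exposure to tamoxifen. The broadly active CAG promoter drives both. Embryos were collected at the 2-cell stage, exposed to 4-hydroxytamoxifen for 2 hours, and cultured in KSOM medium to the 4-cell or 8-cell stage. The mothers had received 2 hormone injections for superovulation and were mated after the second. The supplementary methods place collection at 46 hours after the second hormone injection, and the main text of the paper gives an earlier time. Both groups shared the genotype, the hormones, the drug and the culture, and no untreated group was analysed here. Sequenced embryos had at least 2 cells with visible red or green fluorescence, so they were a selected set. Blastomeres were separated and amplified singly by Smart-seq2, a full-length cDNA protocol.

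The labels give 36 blastomeres of 9 embryos at the 4-cell stage and 31 blastomeres of 4 embryos at the 8-cell stage, and 5 and 6 blastomeres of single embryos at the 5-cell and 6-cell stages. The gene tables held 24 columns for the 4-cell stage and 26 for the 8-cell stage, and their column names could not be matched to the labels. No column was therefore assigned to an embryo or lineage here. The study limited its analyses to the 50 blastomeres whose lineage was resolved. The columns here also number 50 and are a selected set. Several whole 4-cell embryos and some 8-cell blastomeres stayed unresolved in the study. If the columns are the resolved blastomeres, the 24 4-cell columns come from fewer than the 9 embryos of the labels. Each stage was treated as 1 pooled set of cells, and no test between stages was made, because sister blastomeres of an embryo are not independent replicates. Differences below are descriptions of these 50 cells. Values are FPKM, the authors' fragment counts scaled to transcript length and library size, which allow levels to be compared between genes per unit of length.

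The early mouse embryo builds its first epithelium, the trophectoderm, step by step. Blastomeres flatten against each other at compaction, tight junction proteins then gather at the borders of outer cells, and the sealed layer later holds the fluid of the blastocyst cavity. Krt8 and Krt18 proteins pair to form the filaments of simple epithelia, and they are long-standing markers of the trophectoderm. The comparison asks which of these genes already have transcripts at the 4-cell stage, which appear by the 8-cell stage, and in what share of blastomeres.

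Promoter sequence is shown for the 4 genes whose level differed at least 2-fold between stages, which are Krt8, Krt18, Cldn4 and Cldn6. The windows were read from the RefSeq promoter table (build GRCm38.p6, which is mm10) and run 5′ to 3′ along the strand of the gene from 250 bases before to 30 bases after the annotated start. Capitals mark matches on either strand to GCCNNNGGC (TFAP2 family), GGAATG (TEAD family) or GGGCGG (the GC box of SP and KLF factors), the same letters on the opposite strand reading GCCNNNGGC, CATTCC and CCGCCC.
Krt8, chr15:102004313-102004592, reverse strand: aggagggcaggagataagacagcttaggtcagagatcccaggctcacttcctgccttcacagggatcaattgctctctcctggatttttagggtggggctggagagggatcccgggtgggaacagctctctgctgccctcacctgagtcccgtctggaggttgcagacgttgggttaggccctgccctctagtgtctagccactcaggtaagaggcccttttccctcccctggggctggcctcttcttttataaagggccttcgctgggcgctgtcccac
Krt18, chr15:102027966-102028245, forward strand: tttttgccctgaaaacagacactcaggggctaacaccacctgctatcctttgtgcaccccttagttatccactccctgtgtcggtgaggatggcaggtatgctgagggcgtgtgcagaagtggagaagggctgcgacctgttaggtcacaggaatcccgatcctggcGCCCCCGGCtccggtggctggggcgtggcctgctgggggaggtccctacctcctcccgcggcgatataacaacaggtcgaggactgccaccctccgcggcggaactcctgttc
Cldn4, chr5:134946905-134947184, reverse strand: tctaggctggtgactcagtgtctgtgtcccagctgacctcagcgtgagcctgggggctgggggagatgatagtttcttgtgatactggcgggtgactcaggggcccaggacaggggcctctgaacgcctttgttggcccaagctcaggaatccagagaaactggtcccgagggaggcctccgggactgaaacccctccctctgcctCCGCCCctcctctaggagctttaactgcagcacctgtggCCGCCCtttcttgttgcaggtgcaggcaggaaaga
Cldn6, chr17:23679115-23679394, forward strand: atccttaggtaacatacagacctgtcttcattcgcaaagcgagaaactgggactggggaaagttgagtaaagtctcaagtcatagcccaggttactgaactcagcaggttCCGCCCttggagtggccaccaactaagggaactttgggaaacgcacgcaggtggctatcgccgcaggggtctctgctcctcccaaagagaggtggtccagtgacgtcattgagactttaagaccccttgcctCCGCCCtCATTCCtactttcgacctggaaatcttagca

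The Krt8 window held none of the 3 motifs, and the Krt18 window held a single match, to GCCNNNGGC at bases 168 to 176. In windows of 300 bases (250 before to 50 after the start), GGGCGG was present at an annotated start of all 7 junction genes and of neither keratin gene, against 35.7% of all 32851 promoter windows. Cgn held 6 matches, the largest number among the 9 genes. GCCNNNGGC was present for Tjp1, Ocln, F11r and Krt18, that is 4 of 9 genes against 16.6% of all windows, and GGAATG for Cldn6 and Cldn7 against 14.7%. In the second Ocln window a GCCNNNGGC match and a GGGCGG match overlapped. Ocln and Cldn7 have 2 annotated starts each and so 2 chances to match. These are matches of letters in a window and say nothing of binding.

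The 4-cell columns were not uniform, and this touches the results below. Over 6871 genes that leave out the 9, the first 12 columns by number resembled each other more (median Spearman's rho of pairs 0.81) than the last 12 did (0.65) or than columns of the 2 sets did (0.66). The last 12 held the gene-poor blastomeres, with 3009 to 7912 genes above 1 FPKM per blastomere, compared with 6675 to 8276 in the first 12. This split was chosen after the values were seen, and what the column number stands for is not given, so values of the 2 sets are set beside the pooled ones as a description. Whether the 2 sets differ by embryo or by library quality was not tested.

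Of the 9 genes, 7 were already on at the 4-cell stage, where on means an FPKM above 1 in at least 50% of the blastomeres. These were the 7 junction genes. Among the 13604 genes in both tables, 50.6% were on by this rule at the 4-cell stage and 46.5% at the 8-cell stage. At the 8-cell stage all 9 were on, the 2 keratin genes included. In the first 12 4-cell columns Krt8 was above 1 in 8 of 12, so 8 of the 9 were on there, whereas the last 12 had 7 on. The 50.6% is over all 4-cell columns and has no counterpart here for either set. The median number of genes above 1 FPKM per blastomere was 7596 in the first 12 and 6781 in the last 12. Over all columns, 2 of the 9 genes and 2.72% of all genes were on at the 8-cell stage and not at the 4-cell stage. Loss in the other direction was seen for 6.78% of all genes and for 0 of the 9. Cldn6 lay on the mark at the 8-cell stage, with 13 of 26 blastomeres above 1. Leaving out single blastomeres moved its share between 48% and 52%, and 8 to 9 of the 9 genes were then on.

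**Figure D1:**
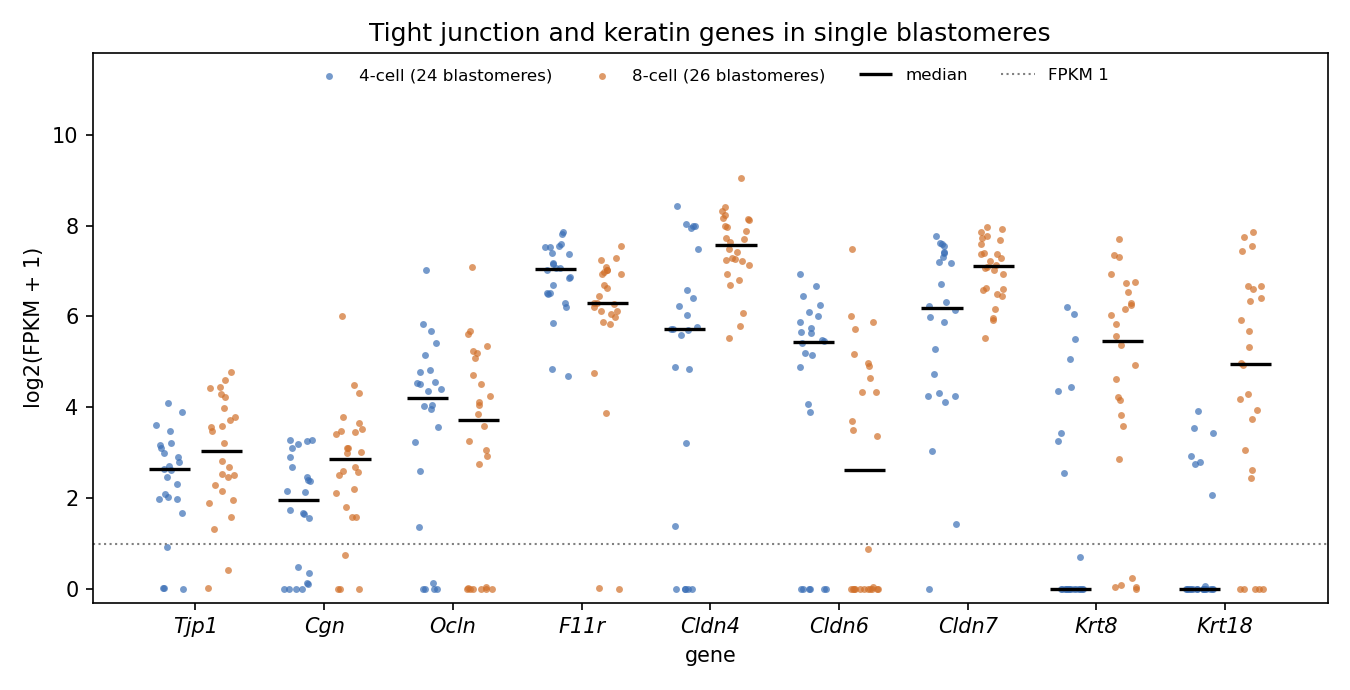
Level of each gene in every blastomere, as log2(FPKM + 1), for 24 blastomeres of the 4-cell stage (blue) and 26 of the 8-cell stage (orange); black bars are medians and the dotted line is FPKM 1. The keratin medians lie at 0 at the 4-cell stage and at 43.3 (Krt8) and 29.8 (Krt18) FPKM at the 8-cell stage, and the ranges of all 9 genes overlap between the stages.

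Scaffold proteins on the inner face of the junction come first. Tjp1 (chr7:65296165-65527850, reverse strand) encodes a zonula occludens protein that ties junction membrane proteins to actin. Its level ran from 0 to 16.1 FPKM with a median of 5.20 in the 4-cell blastomeres, and from 0.00889 to 26.5 with a median of 7.18 in the 8-cell blastomeres. The ranges overlapped, with 6 of 26 8-cell blastomeres above every 4-cell blastomere. Tjp1 was above 1 FPKM in 20 of 24 blastomeres (83.3%, 95% interval 62.6 to 95.3) at the 4-cell stage and in 24 of 26 (92.3%, 74.9 to 99.1) at the 8-cell stage. In the first 12 4-cell columns it was above 1 in 12 of 12 (median 6.46) and in the last 12 in 8 of 12 (median 3.12). All intervals of shares are exact Clopper-Pearson intervals and cover counting error only.

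Cgn (chr3:94760069-94787725, reverse strand) encodes cingulin, a cytoplasmic junction protein that binds myosin and zonula occludens proteins. Its level ran from 0 to 8.75 FPKM with a median of 2.87 at the 4-cell stage, and from 0 to 63.2 with a median of 6.23 at the 8-cell stage. Blastomeres above 1 numbered 16 of 24 (66.7%, 44.7 to 84.4) and then 22 of 26 (84.6%, 65.1 to 95.6). The medians differed by 0.90 on the log2(FPKM + 1) scale, near the 2-fold mark, and 9 of 26 8-cell blastomeres exceeded the whole 4-cell range. The difference ran from 0.71 to 1.12 on leaving out single blastomeres, crossing 2-fold for 25 of the 50, and was 0.46 without the gene-poor blastomeres. The highest value, 63.2, came from the 8-cell library with the fewest fragments, and the next highest was 21.5. Both sets of 4-cell columns had Cgn above 1 in 8 of 12, with medians of 2.79 and 2.87.

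Transmembrane proteins of the junction come next. Ocln (chr13:100496504-100552718, reverse strand) encodes occludin, a membrane protein with 4 membrane-spanning segments that marks the strands of the tight junction. Its level ran from 0 to 128 FPKM with a median of 17.5 at the 4-cell stage and from 0 to 135 with a median of 12.2 at the 8-cell stage. Values above 1 were found in 19 of 24 (79.2%, 57.8 to 92.9) and 18 of 26 blastomeres (69.2%, 48.2 to 85.7). The 2 ranges nearly coincided, and zero values occurred in 4 of 24 and 6 of 26 blastomeres. All 4 zero values of the 4-cell stage were in the last 12 columns, where Ocln was above 1 in 7 of 12 (median 15.4), compared with 12 of 12 in the first 12 (median 19.9).

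F11r (chr1:171437561-171464593, forward strand) encodes junctional adhesion molecule A, an immunoglobulin-type protein that takes part in the first steps of junction assembly. At the 4-cell stage it was the only one of the 9 genes above 1 FPKM in each of the 24 blastomeres (100%, 85.8 to 100), with a range of 24.6 to 229.9 and a median of 131. Of all genes, 9.93% were above 1 in every 4-cell blastomere. At the 8-cell stage the range was 0 to 186 with a median of 77.8, and 24 of 26 blastomeres were above 1 (92.3%, 74.9 to 99.1). The medians differed by -0.74 on the log2(FPKM + 1) scale, within 2-fold, with 4 of 24 4-cell blastomeres above every 8-cell value and 3 of 26 8-cell blastomeres below every 4-cell value. F11r was above 1 in 12 of 12 columns of both 4-cell sets, with medians of 121 and 133.

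Claudins form the paired strands that close the space between cells, and the 3 claudin genes moved differently. Cldn4 (chr5:134945123-134946934, reverse strand), a sealing claudin of many epithelia, ran from 0 to 345 FPKM with a median of 51.8 at the 4-cell stage and from 45.1 to 527 with a median of 189 at the 8-cell stage. It was above 1 in 19 of 24 blastomeres (79.2%, 57.8 to 92.9) and then in all 26 (100%, 86.8 to 100). The 8-cell median was 3.60-fold that of the 4-cell stage on FPKM + 1 (log2 difference 1.85). The ranges still overlapped, with 9 of 24 4-cell blastomeres below the lowest 8-cell blastomere and 1 of 26 8-cell blastomeres above the highest 4-cell blastomere. The 2-fold call rested on the last 12 4-cell columns. In the first 12 Cldn4 ran from 46.9 to 345 with a median of 136 (log2 difference 0.48), and in the last 12 from 0 to 64.7 with a median of 4.95 (log2 difference 5.00).

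Cldn7 (chr11:69964779-69967886, forward strand), a claudin found at the junctions and lateral membranes of many epithelia, ran from 0 to 219 FPKM with a median of 71.7 at the 4-cell stage and from 45.4 to 249.6 with a median of 137 at the 8-cell stage. Detection above 1 was seen in 23 of 24 (95.8%, 78.9 to 99.9) and all 26 blastomeres (100%, 86.8 to 100). Its 8-cell median was 1.90-fold higher (log2 difference 0.92), and again 9 of 24 4-cell blastomeres lay below the lowest 8-cell value. Its median was 162 in the first 12 4-cell columns, above the 8-cell median (log2 difference -0.24), and 18.5 in the last 12 (log2 difference 2.82), so the direction differed between the 2 sets. Cldn4 and Cldn7 were the 2 of 9 genes present in every 8-cell blastomere, a property of 12.9% of all genes.

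Cldn6 (chr17:23679348-23682446, forward strand), a claudin of embryonic epithelia and pluripotent cells, went the other way. It ran from 0 to 122 FPKM with a median of 42.0 at the 4-cell stage, and from 0 to 179 with a median of 5.11 at the 8-cell stage. It was above 1 in 18 of 24 blastomeres (75%, 53.3 to 90.2) and then in 13 of 26 (50%, 29.9 to 70.1). The zero values rose from 6 of 24 to 11 of 26, while in the blastomeres above 1 the median was 49.2 at the 4-cell stage and 28.9 at the 8-cell stage. The 4-cell median was 7.05-fold that of the 8-cell stage on FPKM + 1 (log2 difference -2.82). With 50% of the 8-cell blastomeres above 1, this median lay in the gap between absent and present cells, and leaving out single blastomeres moved the difference between -4.54 and -2.05. The mean of log2(FPKM + 1) gave -1.70. All 6 zero values of the 4-cell stage lay in the last 12 columns, and the difference was -3.09 against the first 12 and -0.55 against the last 12, where it was within 2-fold. Of all genes, 10.1% had a share at least 20 percentage points lower at the 8-cell stage, and Cldn6 was the only one of the 9 to do so over all columns. Against the first 12 4-cell columns it was 50 points lower and against the last 12 the shares were equal. Ocln also passed the 20-point mark against the first 12, with a difference of -30.8 points.

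Over all columns, the largest differences among the 9 genes were those of the keratins. Against the first 12 4-cell columns Cldn6 (-3.09) differed more than Krt8 (2.13). Against the last 12, Cldn4 (5.00) differed slightly more than Krt18 (4.95). Krt8 (chr15:101996711-102004342, reverse strand) encodes the type II partner of the simple keratin pair. Its level ran from 0 to 73.4 FPKM with a median of 0 at the 4-cell stage and from 0 to 209 with a median of 43.3 at the 8-cell stage. It was above 1 in 9 of 24 blastomeres (37.5%, 18.8 to 59.4) and then in 21 of 26 (80.8%, 60.6 to 93.4). The 9 positive 4-cell blastomeres had a median of 20.8 and the 21 positive 8-cell blastomeres a median of 64.4, and 9 of 26 8-cell blastomeres exceeded the 4-cell maximum. The log2 difference of the medians was 5.47, the largest rise of all 13604 genes over all columns. Krt8 ranked 58 against the first 12 4-cell columns, 9 against the last 12 and 2 without the gene-poor blastomeres. Of the 9 positive 4-cell blastomeres, 8 were among the first 12 columns and 1 among the last 12, and the difference was 2.13 against the first and 5.47 against the last.

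Krt18 (chr15:102028216-102032026, forward strand) encodes the type I partner and lies 23873 bases from Krt8 on the same chromosome. Its level ran from 0 to 14.1 FPKM with a median of 0 at the 4-cell stage and from 0 to 233 with a median of 29.8 at the 8-cell stage. The transcript exceeded 1 FPKM in 7 of 24 blastomeres (29.2%, 12.6 to 51.1) and then in 21 of 26 (80.8%, 60.6 to 93.4). The positive 4-cell blastomeres were low, between 3.20 and 14.1, and 17 of 26 8-cell blastomeres lay above all of them. The log2 difference was 4.95, the rank of 4 among 13604 genes over all columns. The rank was 1 against the first 12 4-cell columns, 28 against the last 12 and 5 without the gene-poor blastomeres. Positive blastomeres numbered 5 of the first 12 and 2 of the last 12 4-cell columns, and the difference was 4.91 and 4.95. On the mean of log2(FPKM + 1), Krt18 ranked 1 (3.50) and Krt8 ranked 7 (2.87). Because both 4-cell medians were 0, the size of the difference follows the pseudocount, and with 0.1 in place of 1 it was 8.76 for Krt8 and 8.23 for Krt18.

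**Figure D2:**
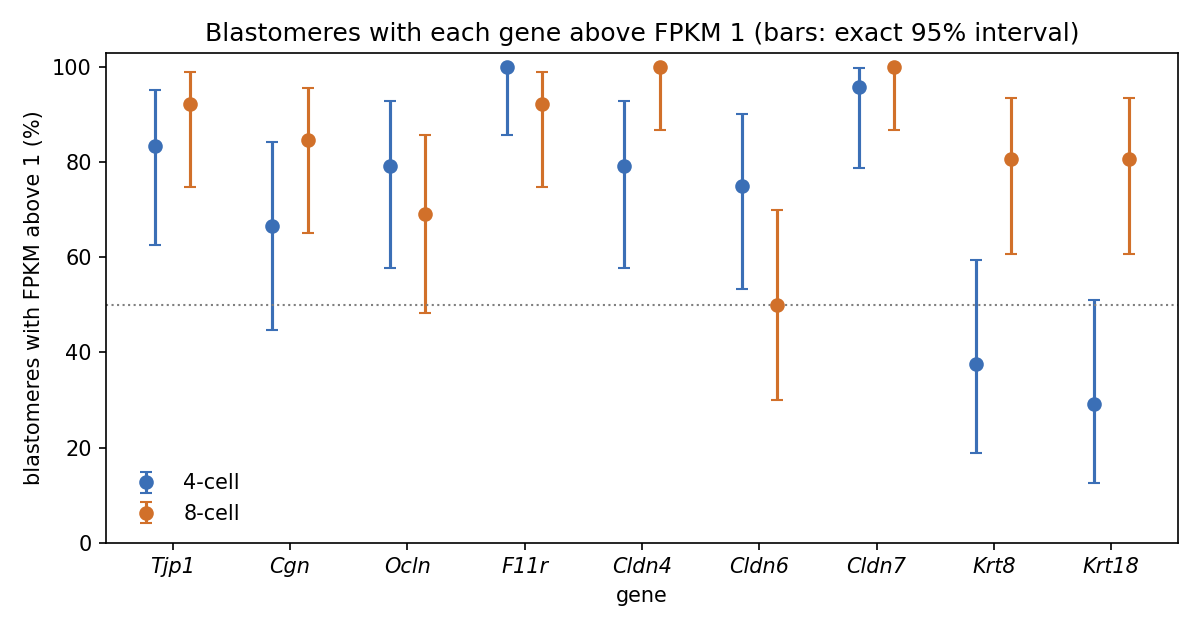
Percentage of blastomeres with each gene above FPKM 1 at the 4-cell (blue) and 8-cell stage (orange), with exact 95% intervals for counting error; the dotted line is 50%. The points lie below 50% at the 4-cell stage and at 80.8% at the 8-cell stage for Krt8 and Krt18; the bars count sister blastomeres as independent, so they are no test between stages.

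The share of positive blastomeres was 43.3 percentage points higher at the 8-cell stage for Krt8 and 51.6 points higher for Krt18. A gain of at least 40 points was seen for 0.331% of all genes. Over all 24 4-cell columns, the largest gain of a junction gene was 20.8 points for Cldn4, and the share was lower for Ocln, F11r and Cldn6. The sizes depended on the set of 4-cell columns. Against the first 12 the gain was 14.1 points for Krt8 and 39.1 for Krt18. Cgn, at 17.9 points, gained more than Krt8 there. Cldn4 and Cldn7 were at 0, Tjp1 and F11r at -7.69, Ocln at -30.8 and Cldn6 at -50. Against the last 12 it was 72.4 points for Krt8 and 64.1 for Krt18, beside 41.7 for Cldn4 and 25.6 for Tjp1.

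Across the 9 genes, 3 had an 8-cell median at least 2-fold higher (Cldn4, Krt8 and Krt18), against 5.23% of all genes, and 1 had a median at least 2-fold lower (Cldn6), against 9.78%. Leaving out the 5 8-cell columns named NA brought Cgn (1.07) and Cldn7 (1.03) past 2-fold as well, so that 5 of 9 were higher (all genes under this setting, 4.47% higher and 10.8% lower). Against the first 12 4-cell columns, Krt8 and Krt18 were higher and Cldn6 lower (all genes, 3.33% higher and 14.3% lower). Against the last 12, Cldn4, Cldn7, Krt8 and Krt18 were higher and 0 of 9 lower (all genes, 12.3% and 10.4%). The median log2 difference was 0.90 over the 9 genes and 0 over all genes. The 0 is no like-for-like background, because genes with a median of 0 at both stages have a difference of 0. Among the 7248 genes on in at least 1 stage, 9.81% were higher and 18.3% lower. All 9 genes are among those 7248, Krt8 and Krt18 through the 8-cell stage alone.

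**Figure D3:**
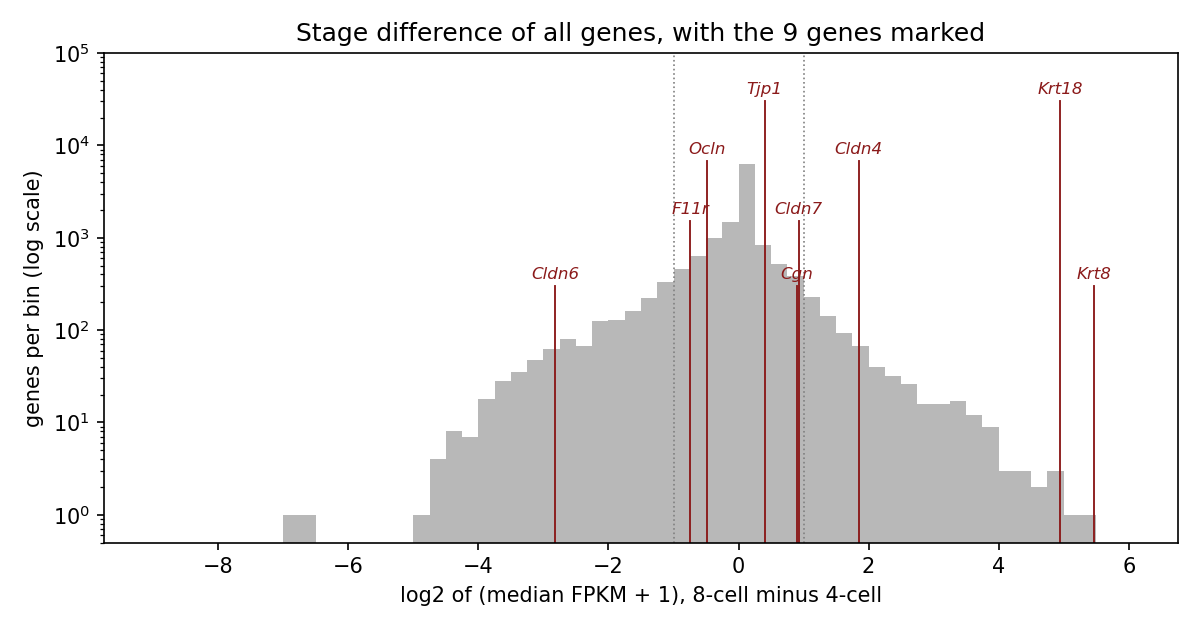
Histogram of the difference in log2(median FPKM + 1), 8-cell minus 4-cell stage, for 13604 genes in bins of 0.25 on a logarithmic count axis, with the 9 genes marked by red lines and 2-fold by dotted lines. Krt8 at 5.47 is at the right end, Krt18 at 4.95 close by, and Cldn6 at -2.82 on the left, while Tjp1, Ocln, F11r, Cgn and Cldn7 lie within 2-fold.

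The order of the levels changed between stages. At the 4-cell stage the medians ran from F11r through Cldn7, Cldn4, Cldn6, Ocln, Tjp1 and Cgn to the 2 keratins at 0. At the 8-cell stage the order was Cldn4, Cldn7, F11r, Krt8, Krt18, Ocln, Tjp1, Cgn and Cldn6. At each stage the middle 50% of the values overlapped for all 8 pairs of neighbours in the order, so neighbours were not separated beyond the spread between blastomeres. F11r was the highest of the 9 genes in 12 of 24 4-cell blastomeres and in 2 of 26 8-cell blastomeres. Cldn4 was the highest in 6 of 24 and in 15 of 26. The first place of F11r rested on the last 12 4-cell columns, where F11r was the highest in 10 of 12 and Cldn4 in 0. In the first 12, Cldn4 was the highest in 6, Cldn7 in 4 and F11r in 2, and F11r had the third highest median (121), after Cldn7 (162) and Cldn4 (136).

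Few values were low but above 0. Of the 450 values, 78 were 0, 22 lay above 0 and up to 1 FPKM, and 350 were above 1. Of the values above 0, 5.91% were at or below 1, compared with 15.1% and 15.9% over all genes of the 4-cell and 8-cell tables. This did not hold for each gene, with 4 such values for Cgn at the 4-cell stage and 4 for Krt8 at the 8-cell stage. A single fragment corresponded to between 0.00816 (Tjp1) and 0.0535 (Krt18) FPKM at the median depth of a stage. The fewest fragments behind a value above 1 were 16.9 (Cldn7, 4-cell), and for Krt18 they were 62.2 (4-cell) and 108 (8-cell). A zero says that no fragment was counted in that library. Whether the transcript was absent or lost in amplification was not tested.

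The 9 genes were also counted within each blastomere. A 4-cell blastomere had between 2 and 9 of them above 1 FPKM with a median of 7, and an 8-cell blastomere between 4 and 9 with a median of 8. All 9 were above 1 in 4 of 24 4-cell blastomeres and in 6 of 26 8-cell blastomeres. All 7 junction genes were above 1 in 11 of 24 and in 7 of 26. By column number, all 9 were above 1 in 4 of the first 12 and 0 of the last 12 4-cell columns, and all 7 junction genes in 8 and 3.

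**Figure D4:**
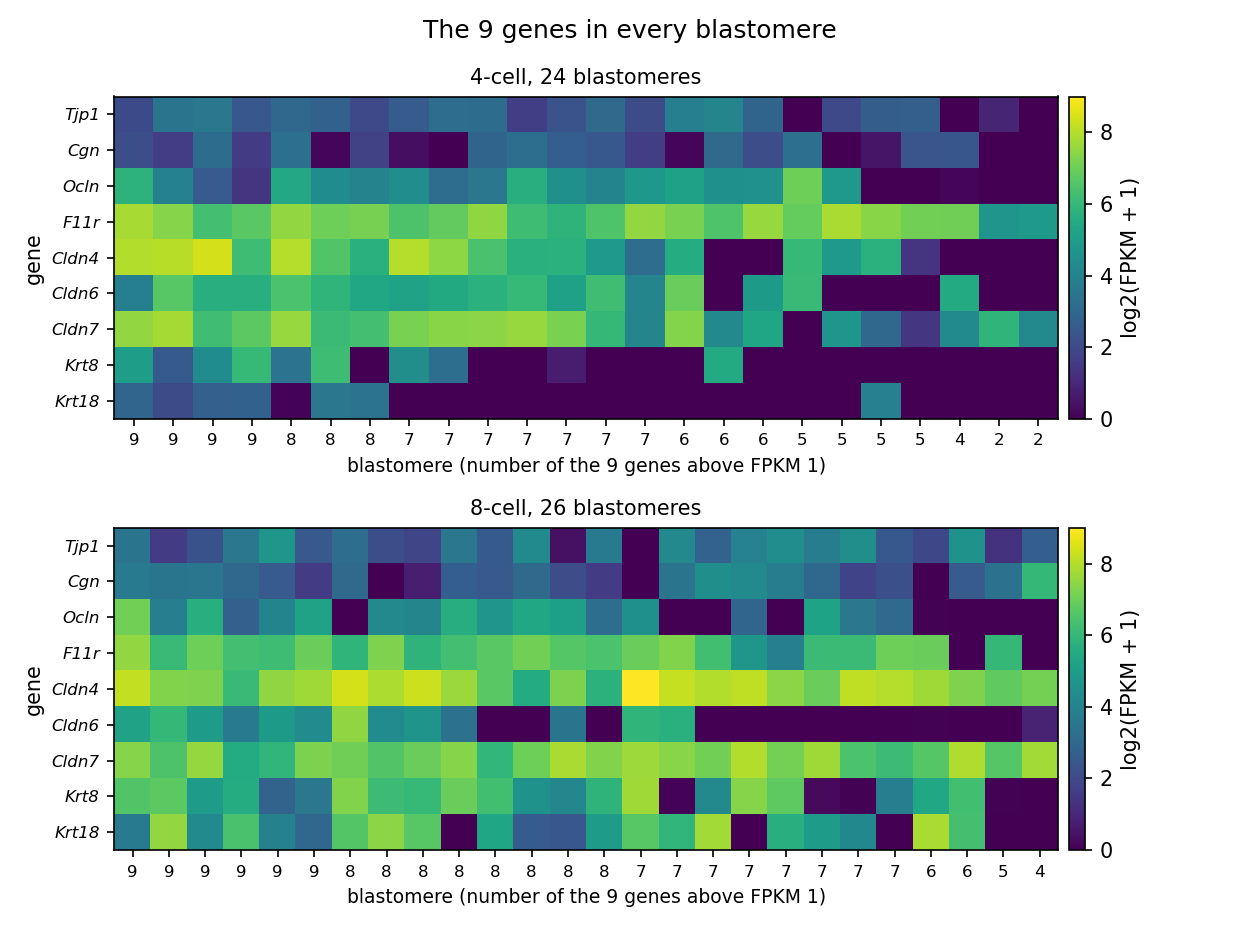
Level of the 9 genes (rows) as log2(FPKM + 1), from 0 in dark purple to 9 in yellow, in every blastomere (columns) of the 4-cell (top) and 8-cell stage (bottom), with columns sorted by the number of genes above FPKM 1, printed under each. The keratin rows are mostly dark at the 4-cell stage and mostly lit at the 8-cell stage, while Cldn6 is at 0 in 11 of the 26 8-cell blastomeres.

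Keratin filaments need both partners, so the pair was examined cell by cell. At the 4-cell stage, 5 of 24 blastomeres had both Krt8 and Krt18 above 1 FPKM, 4 had Krt8 alone, 2 had Krt18 alone and 13 had neither. All 5 with both were among the first 12 columns, which makes 5 of 12 there and 0 of the last 12. At the 8-cell stage, 18 of 26 had both, 3 had Krt8 alone, 3 had Krt18 alone and 2 had neither. In blastomeres with both, Krt8 was the higher in 5 of 5 at the 4-cell stage, with a Krt8 to Krt18 ratio of 1.53 to 11 (median 4.88). At the 8-cell stage Krt8 was the higher in 10 of 18, and the ratio ran from 0.0822 to 7.48 (median 1.55). The Spearman correlation of the 2 keratins over the 26 8-cell blastomeres was 0.33.

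**Figure D5:**
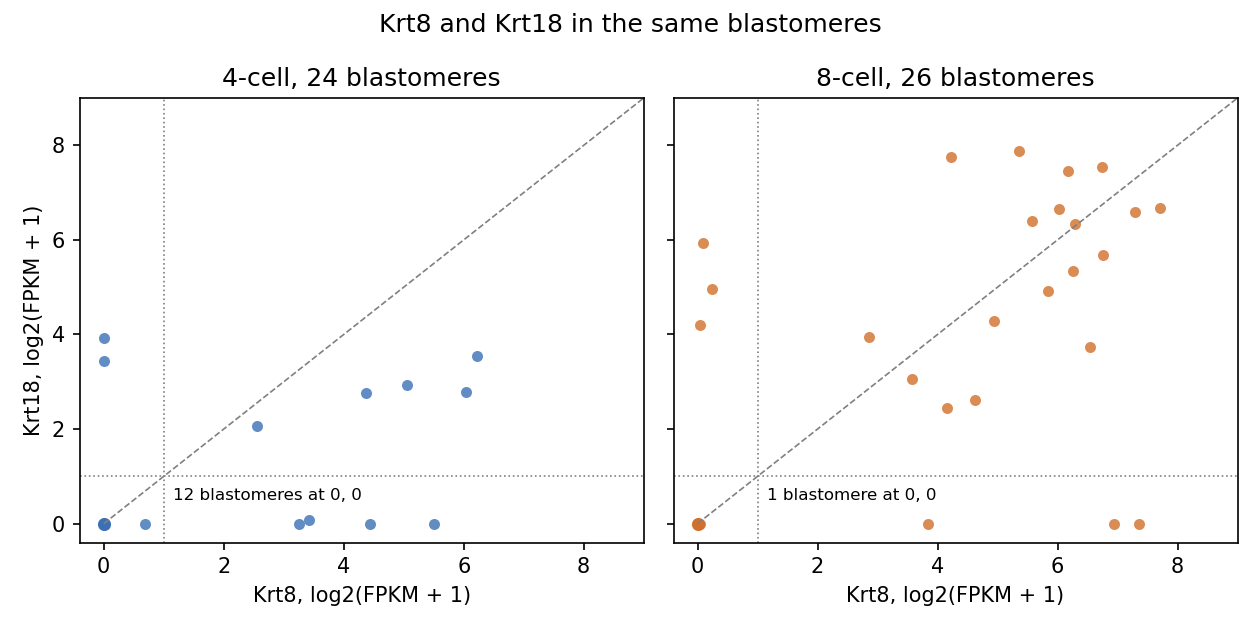
Krt18 against Krt8 in the same blastomere, as log2(FPKM + 1), for 24 4-cell (left) and 26 8-cell blastomeres (right); dotted lines are FPKM 1 and the dashed line is equality. At the 4-cell stage 12 blastomeres are at 0 for both genes and the 5 with both above 1 lie below the line of equality, while 18 of 26 8-cell blastomeres have both and scatter on either side of it.

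Levels of all pairs were compared in the same way. Over the 36 pairs of the 9 genes, keratins included, Spearman's rho ran from -0.14 to 0.62 (median 0.19) at the 4-cell stage, where 32 pairs were above 0, and from -0.34 to 0.52 (median 0.0067) at the 8-cell stage, where 18 were. The 4 highest 4-cell values were those of Cldn4 with Cldn7 (0.62), Krt8 (0.59) and Krt18 (0.55) and of Cldn6 with Cldn7 (0.56), and the highest 8-cell value was that of Ocln with F11r (0.52). These values are descriptions over 24 and 26 cells that share embryos, differ in depth and, at the 4-cell stage, fall into the 2 sets of columns above. At the 4-cell stage, Cldn4 (0.63), Tjp1 (0.60), Krt8 (0.59) and Cldn7 (0.54) were themselves correlated with the number of genes above 1 FPKM in the blastomere. At the 8-cell stage Ocln (0.51) and F11r (0.50) were, while Cgn had a value of the opposite sign (-0.41), and Krt8 (-0.0031) and Krt18 (-0.11) were not far from 0.

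Some libraries stood apart in gene number. The number of genes above 1 FPKM ran from 3009 to 8276 (median 7155) in 4-cell and from 3548 to 8078 (median 6773) in 8-cell blastomeres, with 3 blastomeres of each stage below 5000. The depth, recovered from the steps between low values as the total behind the FPKM scale, was 6.87 M to 16.9 M fragments (M, mega; median 13.4 M) in 4-cell and 2.33 M to 21.7 M (median 17.2 M) in 8-cell libraries. Neither keratin was detected in the 3 gene-poor 4-cell blastomeres, and 2 of them had F11r and Cldn7 alone above 1. The shallowest 8-cell library (2.33 M fragments, 3548 genes) had Tjp1, Cgn, Cldn4 and Cldn7 above 1 and F11r, Ocln and both keratins at 0. The study dropped a blastomere with under 3 M uniquely mapped read pairs. The 2.33 M is the total behind the FPKM scale, which may be another measure. Without this library the log2 difference of Cldn6 was -2.05. Without the gene-poor blastomeres, Cldn7 was above 1 in all 21 4-cell blastomeres, and the log2 differences were 5.36 for Krt8, 4.97 for Krt18, 1.92 for Cldn4, -1.95 for Cldn6 and 0.46 for Cgn. The same 3 genes remained at least 2-fold higher and Cldn6 remained lower.

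Of the markers of cleavage-stage blastomeres, 6 of 8 listed (75%) were on at the 4-cell stage and 5 of 9 (55.6%) at the 8-cell stage. Of the genes in both tables, 50.6% and 46.5% were on. Dppa3 and Klf5 were above 1 FPKM in all 24 and all 26 blastomeres, and Pou5f1 and Tfap2c in all 26 8-cell blastomeres. Padi6 was above 1 in 23 of 24 and 22 of 26, and Nlrp5 in 17 of 24 and 9 of 26. Ooep was above 1 in 11 of 24 and 9 of 26, and Gata3 in 7 of 24 and 11 of 26. Cdx2 was listed at the 8-cell stage alone, where it was above 1 in 4 of 26. Of 8 markers of cumulus and granulosa cells, 3 and 2 were listed, with a summed level of 0 to 3.06 and 0 to 1.66 FPKM. Of 4 stromal markers, 0 and 1 were listed, with a sum of at most 0.0115. Among 4 blood and immune markers only Cd68 was listed, above 1 in 8 of 24 and 5 of 26 blastomeres. The 6 egg and polar body transcripts summed to 0.0818 to 234 FPKM (median 91.9) at the 4-cell stage and 14 to 205 (median 53.0) at the 8-cell stage. Zp3 had medians of 83.2 and 45.6, Gdf9 of 4.39 and 0, and Bmp15 of 0.164 and 0. The rest had medians of 0 at both stages. The part of such maternal transcripts in the lower Cldn6 level was not tested.

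Other genes of the same structures gave a background for the 9. Of 45 further tight junction genes, 35 were listed at the 4-cell stage and 34 at the 8-cell stage. Of those listed at a stage, 6 (17.1%) and 7 (20.6%) were on, beside 50.6% and 46.5% of the genes in both tables. Of the 31 in both tables, 2 were at least 2-fold higher at the 8-cell stage and 1 was lower, with a median log2 difference of 0. Genes with a median of 0 at both stages, whose difference is 0, are among the 31. Ybx3, a nucleic-acid-binding protein that associates with the tight junction scaffold, went from a median of 15 to 40.9 and was above 1 in all 26 8-cell blastomeres. Pard3, a polarity scaffold, went from 1.62 to 0.00564, with 14 of 24 and 6 of 26 blastomeres above 1. Crb3, the apical polarity protein, was the most abundant of the list with medians of 151 and 119 and was above 1 in every blastomere of both stages.

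Other keratins were taken from a fixed list, not from the whole family. Of 20 further keratin and intermediate filament genes, 5 were listed at the 4-cell stage and 8 at the 8-cell stage. At either stage 0 of them were on, beside 50.6% and 46.5% of the genes in both tables. Krt10, a keratin of the epidermis, was above 1 in 8 of 24 and 11 of 26 blastomeres, at up to 2.90 and 6.64 FPKM. Krt222, a keratin-like gene, was above 1 in 7 of 24 and 2 of 26. Krt7 and Krt19, the other simple keratins of the trophectoderm lineage, were not listed at the 4-cell stage and were above 1 in 1 of 26 8-cell blastomeres each, at up to 11.9 and 13 FPKM. Vim, the mesenchymal filament gene, was above 1 in 1 of 24 and 1 of 26.

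Desmosomes anchor keratin filaments at the membrane. Of 13 desmosome genes, 2 of 10 listed (20%) were on at the 4-cell stage and 3 of 7 (42.9%) at the 8-cell stage. The 2 percentages have different denominators. Of the 6 in both tables, 1 was on at the 8-cell stage and not at the 4-cell stage, and 0 the reverse. Of all genes in both tables, 50.6% and 46.5% were on. Perp, a membrane protein of desmosomes, went from a median of 0 to 30.5 FPKM (log2 difference 4.98) and from 9 of 24 to 23 of 26 blastomeres above 1. Pkp4, a plakophilin-family protein, went from 2.02 to 5.10 (log2 difference 1.01), whereas Jup, plakoglobin, had medians of 6.02 and 6.05. The desmosomal cadherin Dsg2 was in neither table, and the plaque protein Dsp was above 1 in 1 of 24 and 5 of 26 blastomeres.

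Adherens junction genes act in compaction. Of 12, 8 (66.7%) were on at each stage, beside 50.6% and 46.5% of all genes. Cdh1, which encodes E-cadherin, had medians of 6.36 and 6.40 and was above 1 in 16 of 24 and 20 of 26 blastomeres. Nectin2 went from 1.10 to 3.24, and Epcam, an epithelial adhesion molecule, from 28.9 to 9.92 with 23 of 24 and 18 of 26 blastomeres above 1. As in the tight junction list, most genes of this list lay within 2-fold.

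For each of the 9 genes, the 3 genes with the most similar levels over the 26 8-cell blastomeres were found among 5632 genes by Spearman's rho. Such values are the extremes of many and are given as a description with no test. None of the 27 was another of the 9. Krt18 was most like Hand1 (0.78), a transcription factor of the trophoblast, followed by Lgmn (0.74) and Dnmt3a (0.72). Krt8 was most like Zfp534, Edem2 and Nup35 (0.75 each). Ocln was most like Pou5f1 (0.75), the pluripotency factor, followed by Tmem159 (0.75) and Acadl (0.72). Cldn7 had the highest value of all, with Srp9 (0.83), a subunit of the signal recognition particle, followed by Timd2 and Arf4 (0.75 each). F11r was most like Rtf1 and Kifc3 (0.77 each) and Srrt (0.75), Cldn6 like Usp33 (0.72), Serinc1 (0.70) and Alppl2 (0.70), and Cldn4 like Marchf5 (0.72), Uck2 (0.69) and Atxn7l3b (0.66). Cgn was most like Lrrc40 (0.70), Spc24 (0.66) and Mrpl58 (0.65). Tjp1 had the weakest, with Triml2 (0.59), Mir3091 (0.58) and Glul (0.54).

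Copies of the transcripts elsewhere in the genome bear on the counts, because only uniquely aligned reads were used. The Krt8 mRNA had 1 intronless copy covering over 50% of its length at 97.9% identity. Krt18 had 3 such copies at 83.6 to 90.3% identity, and the other 7 mRNAs had 0. Krt8 reads that also match the copy would be dropped, so the absolute Krt8 level, and with it the Krt8 to Krt18 ratio, is uncertain. The effect on the stage difference was not tested.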

How the data were processed

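Single blastomeres were sequenced by Smart-seq2 (paired-end). According to the methods, the authors aligned reads to mm10 with STAR 2.5.1b, kept uniquely aligned reads and counted RefSeq genes with HTSeq-count. The deposited gene tables hold FPKM; the gene lengths and the total used for scaling are not given in the sources used here. Of 50 columns, 24 are 4-cell and 26 are 8-cell; names match no label, so each stage was 1 set. The tables list only genes with a value above 0 in at least 1 column. Transposon tables were not used.

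Shares above FPKM 1 have exact 95% Clopper-Pearson intervals. Stage differences are log2(median + 1), 8-cell minus 4-cell, called at 2-fold; no p-value was computed. Depth was estimated from steps between low FPKM values (90.6 to 96.4% of values within 0.1 of a whole fragment) and checked on simulated data. The 9 genes and the lists were chosen with earlier results of these data known. Named genes were all 9, list genes on at a stage and those among the 3 largest medians of a list. The 3 genes most like each of the 9 were named too. List genes outside these rules (Krt7, Krt19, Krt222, Vim, Dsg2, Dsp, Cd68, Cdx2, Gata3, Ooep) were named after their values were seen. Alternatives were thresholds of 0.1 and 5, at least 10 fragments, a pseudocount of 0.1, means, size factors, and leaving out columns; the split of the 4-cell columns by number and the omission of the shallowest 8-cell library were added after seeing the data. Promoters and gene positions came from RefSeq GRCm38.p6, and copies from minimap2 2.31. Python 3.11.15, numpy 2.4.6, pandas 2.3.3 and scipy 1.17.1 were used.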

Additional observations from a re-analysis of the deposited data

How the results depend on the processing

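No paired analysis was possible because the table columns carry neither embryo nor replicate numbers. Only the column names were used to decide this, and the stages came from different embryos. The paper lists read counts of each blastomere with its embryo and lineage. Whether the columns can be matched to that list by order or depth was not tested, and no analysis by embryo was made. The count of the 9 genes on stayed within 7 (4-cell) and 8 to 9 (8-cell) when single blastomeres were left out, the count at least 2-fold higher within 3 to 4, and the count lower at 1; over all genes these were 662 to 795 higher and 1258 to 1412 lower. Of the 9 genes, 5 were at least 2-fold higher without the 8-cell columns named NA (4.47% of all genes). Restricting the background to genes on in at least 1 stage raised the percentage of genes higher from 5.23 to 9.81 and lower from 9.78 to 18.3; Krt8 and Krt18 pass that filter through the 8-cell stage alone. Shares moved outside their own intervals at a threshold of 5 FPKM for Tjp1 (54.2% and 57.7%) and Cgn (29.2% and 57.7%), which left 6 of the 9 genes on at the 4-cell stage, and for Cldn7 without the gene-poor 4-cell blastomeres or without a single one of them (100%). Against the first 12 and the last 12 4-cell columns by number, an alternative added after seeing the data, all genes at least 2-fold higher numbered 453 and 1675; against the last 12, 0 of the 9 genes were lower, with Cldn6 at -0.55, and against the first 12 Cldn4 was at 0.48. Shares outside the pooled intervals in the first 12 were those of Tjp1, Ocln, Cldn4, Cldn6 and Cldn7 (100% each) and Krt8 (66.7%), and in the last 12 those of Cldn6 (50%) and Krt8 (8.33%). No called difference reversed, but that of Cldn7, within 2-fold in the pooled columns, was -0.24 against the first 12 and 2.82 against the last 12. Cgn passed 2-fold with a pseudocount of 0.1 (1.09), without the NA columns (1.07) and on leaving out any of 25 single blastomeres (range 0.71 to 1.12), and Cldn7 on the mean of log2 values (1.38) and without the NA columns (1.03). Median-of-ratios size factors over 931 genes kept the direction of all 9. The median of all genes stayed at 0, which is no check of the scaling. A gene with a median of 0 at both stages has a difference of 0 under any size factor. None of the 9 genes had a share of 0 at either stage. For other genes, a share of 0 could not be told from up to 12.5% (24 cells) or 11.5% (26 cells). That limit covers counting error only and takes sister blastomeres as independent.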
